A study of Danio rerio with 12 samples.

Results

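The gene cxcl8a of the zebrafish (ENSDARG00000104795, also called il8) encodes the chemokine Cxcl8a. It is 1 of the 31962 genes counted in 12 samples of macrophages sorted from larvae, and it was picked out by its identifier. Earlier results of these data were known when it was chosen. Its level was followed over 4 groups that differ in drug treatment and in tail amputation. The question was how cxcl8a mRNA in these cells changed after wounding, and how it changed with a glucocorticoid.

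Cxcl8 belongs to the CXC chemokines, small secreted proteins that attract leukocytes. In mammals CXCL8, known as interleukin 8, binds the receptors CXCR1 and CXCR2 and draws neutrophils to sites of injury and infection, and macrophages are among the cells that make it. Transcription of human CXCL8 depends on NF-kB, AP-1 and C/EBP factors, its short-lived mRNA is broken down by proteins of the ZFP36 family, and glucocorticoids are known to lower its expression through their receptor.

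Control larvae received the vehicle, 0.05% DMSO, and were not wounded. Amp larvae received the vehicle and had part of the tail removed. Beclo larvae received 25 µM beclomethasone, a synthetic glucocorticoid, and were not wounded, and Amp+Beclo larvae received both. All larvae were 3 days post fertilization (dpf), were treated for 2 h before the time of amputation and kept in the same treatment, and cells were sorted at 4 hours post amputation (hpa). All carried the transgene Tg(mpeg1.4:mCherry-F), in which a macrophage promoter drives a red fluorescent protein, and cells were chosen by their red fluorescence only. Each group had 3 samples, 1 from each of 3 replicate experiments, and each sample pooled the cells of 100 to 150 embryos, so the values are means over many animals and over cells near to and far from the wound. Actinomycin D, which blocks transcription, was present in all groups during the dissociation.

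The samples held between 9488569 and 18865019 reads on genes. Levels are given as CPM (reads per 1e6 reads on genes), after correction for differences in composition between the libraries (TMM normalization). The correction factor lay between 0.9258 and 1.148 in 10 libraries, but was 0.7757 and 0.7519 in replicates 2 and 3 of Amp, which also had the smallest shares of reads outside genes, 6.55% and 4.72%, where the other 10 had 7.68% to 12.6%. Of the 19 macrophage markers measured, none was at 0 in all samples of any group, and their summed level ranged from 3780 to 16494 CPM in Control and from 5430 to 24959 CPM in Amp. The Beclo samples had sums of 7578 to 14152 CPM, and the Amp+Beclo samples 3769 to 13799 CPM. Genes with the symbol mfap4 made up most of this sum in each sample. Markers of other cell types were present as well. The 6 epithelial markers summed to 7268 to 29728 CPM and the 9 muscle markers to 5433 to 40910 CPM over the 12 samples, so the sorted samples contained RNA of other tissues besides macrophages.

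In Control, cxcl8a had 165, 340 and 174 reads in replicates 1, 2 and 3 of Control, which correspond to 7.62, 29.3 and 14.2 CPM, so that the samples of this group already differed widely. In Amp it had 544, 507 and 628 reads, or 30.5, 60 and 76.7 CPM. All Amp samples were above all Control samples, although the lowest Amp value and the highest Control value were almost equal. In Beclo it had 86, 65 and 70 reads, or 6.13, 5.47 and 6.32 CPM. These values were close together and below every Control sample. In Amp+Beclo it had 178, 181 and 67 reads, or 13.9, 17.7 and 6.17 CPM, so that replicates 1 and 2 were above all Beclo samples and replicate 3 was among them. In bulk RNA of sorted cells, a lower number of cells that make cxcl8a and less cxcl8a mRNA per cell cannot be told apart.

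**Figure D1:**
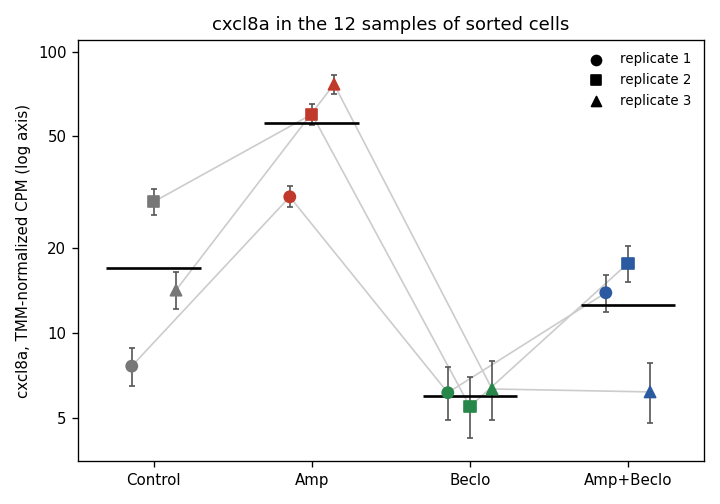
Level of cxcl8a (TMM-normalized CPM, log axis) in the 3 samples of each group. Symbols mark the replicate experiments, grey lines join samples of the same replicate, thin bars are 95% Poisson intervals of the counts and thick black lines are group means. The Beclo samples sit between 5.47 and 6.32 CPM, and the Amp samples, at 30.5 to 76.7 CPM, are above the other 9 samples.

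The mean level was lowest in Beclo, at 5.97 ± 0.445 CPM, followed by Amp+Beclo at 12.6 ± 5.85, Control at 17 ± 11 and Amp at 55.7 ± 23.3 CPM (SD, n = 3 each). The neighbours Beclo and Amp+Beclo overlapped, and so did Amp+Beclo and Control, whereas Control and Amp did not. The spread between replicates also differed among the groups. The highest sample exceeded the lowest 3.84-fold in Control, 2.51-fold in Amp and 2.86-fold in Amp+Beclo, but only 1.16-fold in Beclo. The coefficient of variation of the Beclo samples, 7.46%, was below the 12% that counting alone gives at their mean number of reads, while in Control it was 65.2% against 6.65% from counting. With 3 samples per group no test of this difference in spread was made. Counting intervals cover counting error only, because the amplified reads carried no molecular identifiers.

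To determine the effect of wounding in vehicle-treated larvae, Amp was compared with Control. The chemokine gene rose after amputation in each of the 3 replicates, 4.01-fold in replicate 1, 2.05-fold in replicate 2 and 5.4-fold in replicate 3. The fitted log2 fold change was 1.83 ± 0.38 (SE), a 3.56-fold rise, with an adjusted p of 0.00048 (edgeR quasi-likelihood test with the replicate experiment as a block, Benjamini-Hochberg adjustment over 22107 genes). It ranked 85 of the 22107 genes by p. In this comparison 543 genes (2.46%) passed an adjusted p of 0.05 and a fold change of 2, of which 251 (1.14% of those tested) were higher in Amp. The median log2 fold change of all genes was -0.11. The call was lost in 3 of the 10 alternatives. The adjusted p (edgeR) was 0.85 without the block, 0.64 without replicate 3, and 0.36 when all 12 samples shared 1 fit with the block kept. The alternative with no fold-change cutoff reuses the main fit, so the call could not be lost there. The log2 fold change stayed between 1.53 and 2.29 under all 10. In the main fit edgeR pooled the quasi-likelihood spread over all tested genes, which gave 44214 degrees of freedom, and the adjusted p rests on this pooling. The fits of Beclo and of Amp+Beclo against Control had 12.3 and 10.3 degrees of freedom, and that of Amp+Beclo against Beclo had 7.4. The 3 paired differences of cxcl8a itself had a mean of 1.81 and an SE of 0.41 on the log2 scale, close to the fitted values. However, 3 pairs alone allow no exact p below 0.25.

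Under beclomethasone the difference between wounded and unwounded larvae was less regular. Amp+Beclo exceeded Beclo 2.27-fold in replicate 1 and 3.23-fold in replicate 2, but in replicate 3 the ratio was 0.977. The fitted log2 difference was 1.02 ± 0.38 (95% interval 0.13 to 1.91), with an adjusted p of 0.53 (edgeR, 21727 genes), so it did not pass. It was 0.65 without replicate 2 and 1.49 without replicate 3. Only 1 gene (0.0046%) passed the adjusted p of 0.05 in this comparison, and 2017 had an unadjusted p below 0.05. DESeq2 gave 132 genes, and cxcl8a was not among those called under any of the 9 alternatives.

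The effect of beclomethasone alone was assessed in unwounded larvae. Levels of cxcl8a were lower in Beclo than in Control in every replicate, but by very different factors. Control exceeded Beclo 1.24-fold in replicate 1, 5.35-fold in replicate 2 and 2.25-fold in replicate 3. Since the Beclo values were nearly equal, this order followed the Control values. The fitted log2 fold change was -1.30 ± 0.46 (95% interval -2.31 to -0.29), with an adjusted p of 0.73, and did not pass. In this comparison 38 genes passed (0.172%), 37 of them higher in Beclo (0.167%), so that few genes passed in any direction. The log2 fold change of cxcl8a lay between -1.81 and -0.76 over the 10 alternatives and passed under none of them. The lower of these in size, -0.76, was the value without replicate 2.

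In wounded larvae, cxcl8a was lower with beclomethasone in every replicate. Amp exceeded Amp+Beclo 2.2-fold in replicate 1, 3.4-fold in replicate 2 and 12.4-fold in replicate 3. All Amp+Beclo samples, with a highest value of 17.7 CPM, were below all Amp samples, with a lowest value of 30.5 CPM. The fitted log2 difference was -2.12 ± 0.59, corresponding to a 4.35-fold lower level, with an adjusted p of 0.079 (edgeR, 21742 genes). It missed the threshold, although it ranked 87 by p. Here, too, edgeR pooled the spread over genes, and the SE of the 3 paired differences of cxcl8a itself, 0.74 around a mean of -2.16, was wider than the fitted one. In the same comparison 65 genes passed (0.299%), 56 of them higher in Amp+Beclo (0.258%), and the median log2 difference of all genes was 0.14. With DESeq2 the log2 difference was -2.22 and the adjusted p 0.026, the only 1 of 9 alternatives under which cxcl8a passed. Without replicate 3, which had the largest ratio, the log2 difference was -1.43.

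Set against the unwounded, vehicle-treated larvae, the wounded larvae with beclomethasone did not differ in cxcl8a in a fixed direction. Amp+Beclo was 1.82-fold higher than Control in replicate 1, and Control was 1.66-fold and 2.3-fold higher than Amp+Beclo in replicates 2 and 3. The fitted log2 fold change was -0.35 ± 0.42 (95% interval -1.28 to 0.57), with an adjusted p of 1.00. Without replicate 3 the value was 0.06, so the sign of this difference depended on 1 replicate. In this comparison 93 genes passed (0.419%), 83 of them higher in Amp+Beclo (0.374%). Amp and Amp+Beclo were compared with the same Control samples, as was Beclo, so these comparisons are not independent.

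**Figure D2:**
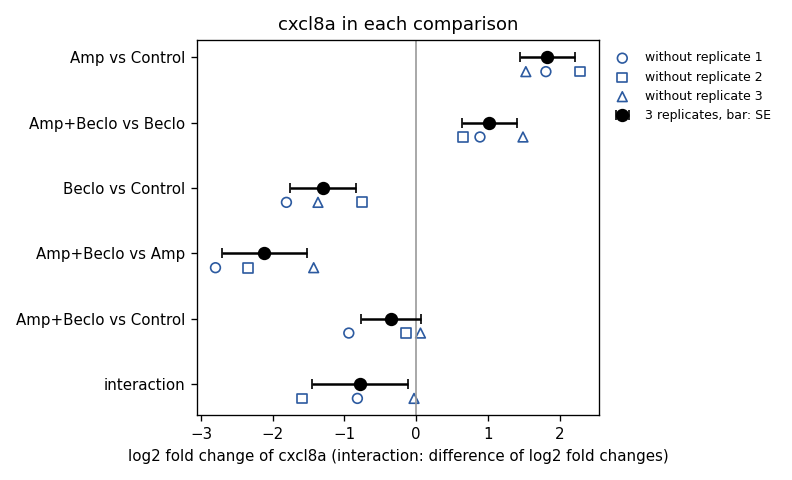
Fitted log2 fold change of cxcl8a in each comparison (x axis, first group against the second), with the interaction as the difference of the amputation effects with and without beclomethasone. Black points are fits on all 3 replicates with SE bars, and open symbols leave out 1 replicate each. Amp against Control, at 1.83, is the only black point past the threshold of its comparison.

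An interaction term fitted to the 12 samples tested whether the amputation effect itself differed between drug states. The log2 difference between the amputation effects was -0.78 ± 0.67 (95% interval -2.21 to 0.66), with an adjusted p of 0.59 (edgeR, 21979 genes). The 3 replicates gave -0.82, 0.63 and -2.45, so replicate 2 went the other way. The fitted value was -0.03 without replicate 3 and -1.59 without replicate 2. A smaller fold rise under the drug was therefore not shown for cxcl8a, nor was an equal fold rise. The test compares fold changes, each against the unwounded group of the same drug state. In CPM the mean went from 17 (Control) to 55.7 (Amp), and from 5.97 (Beclo) to 12.6 (Amp+Beclo). Whether the rise in CPM differed was not tested. No gene passed this test (0% of 21979), 2389 had an unadjusted p below 0.05, and DESeq2 gave 5 genes, without cxcl8a.

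The comparisons of 3 pairs cannot give an exact p below 0.25, so both wound states and both drug states were also combined for this single gene. Beclomethasone-treated samples had less cxcl8a than their vehicle-treated counterparts in 6 of 6 pairs. The mean log2 difference was -1.72 ± 1.15 (SD over 6 pairs, range -3.60 to -0.31), a 3.3-fold lower level, with an exact two-sided p of 0.0312 in the permutation test of all sign flips, the smallest that 6 pairs allow. Wounded samples had more cxcl8a in 5 of 6 pairs. The mean log2 difference was 1.37 ± 0.86 (SD over 6 pairs, range -0.03 to 2.42), a 2.59-fold higher level, with an exact two-sided p of 0.0625. Without the TMM correction, with levels per total reads on genes, this mean was 1.27 and the exact p 0.0312. Both tests flipped the 6 pairs separately, which treats both differences of a replicate experiment as exchangeable units. The pairs came from only 3 experiments, and with the experiment as the unit no exact p could be below 0.25.

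The composition of the libraries moved along with some of these values. The sample with the highest cxcl8a level, replicate 3 of Amp, also had the highest epithelial sum, 29728 CPM, and the highest muscle sum, 40910 CPM, with a macrophage sum of 5430 CPM. The lowest sample of Amp+Beclo, replicate 3, had the lowest macrophage sum of all, 3769 CPM, and high sums of epithelial markers (16834 CPM) and muscle markers (29838 CPM). So high levels of these markers stood beside the highest value of cxcl8a and beside 1 of the lowest. The epithelial sum was higher in Amp than in Control in replicates 2 and 3, at 20601 against 7384 and 29728 against 15614 CPM, as was cxcl8a. In replicate 1 it was 7268 CPM in Amp and 7864 CPM in Control, while cxcl8a was 4.01-fold higher in Amp. The muscle sum was higher in Amp than in Control in each replicate, at 14904 against 8019, 14973 against 5433 and 40910 against 22950 CPM. Of the 6 epithelial markers none passed the test in Amp against Control, and of the 9 muscle markers 1 did. Of the 3 pigment cell markers 2 passed, and of the 19 macrophage markers 1, an mpeg1 gene (ENSDARG00000043093). All of these were higher in Amp, where 1.14% of all genes passed as higher. The pigment sums were 15.4, 522 and 142 CPM in Amp and 17.4, 37.6 and 48.1 CPM in Control. Both pigment calls were lost with DESeq2 and without replicate 2, among other alternatives. Macrophage markers went both ways, with 8 of the 19 higher in Amp in all 3 replicates and 5 lower. Of all genes 19% and 24.6% did so. Most of the 8 share the symbol mfap4 and had similar patterns over the samples, so they are not separate markers. The mpeg1 gene with most reads, ENSDARG00000055290, had 1369, 1439 and 169 CPM in Amp against 1738, 2588 and 624 CPM in Control. Of the 7 neutrophil markers listed, mpx, cpa5 and cma1 were not matched. The 4 neutrophil markers measured summed to 104 to 287 CPM in Control and 165 to 671 CPM in Amp. In Beclo their sums were 174 to 251 CPM, and in Amp+Beclo 140 to 353 CPM. Most of the highest sum, 671 CPM in replicate 2 of Amp, was srgn, at 500 CPM. The log2 fold changes of the 4 in Amp against Control were 0.50 (lyz), -0.46 (npsn), 0.89 (srgn) and 1.31 (mmp13a). The 1 that passed, mmp13a, also stands in the list of inflammatory genes below. In wounded larvae the macrophage sums were 13799, 5676 and 3769 CPM with the drug and 11066, 24959 and 5430 CPM without it. They were thus lower with the drug in replicates 2 and 3, but higher in replicate 1. In Amp+Beclo against Amp 3 of the 19 macrophage markers had a log2 difference above 0. Their median was -0.79, against 0.14 for all genes, and none passed, where 0.299% of all genes did. The part of other cells, or of the macrophage content, in the level of cxcl8a was not tested. Without the TMM correction the order of the groups was the same, with 5.8 ± 0.182 CPM in Beclo, 13.5 ± 6.13 in Amp+Beclo, 18.3 ± 11 in Control and 46 ± 11.9 in Amp (SD, n = 3).

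The zebrafish has further genes of the Cxcl8 family. In RefSeq's annotation of the GRCz12tu assembly, cxcl8b.1 and cxcl8b.3 lie next to each other and cxcl8a lies apart from them, beside pde5aa. Few reads fell on these paralogs. The gene cxcl8b.1 had 125 reads over the 12 samples, with mean levels between 0.5 ± 0.639 CPM (Amp) and 1.04 ± 0.474 CPM (Beclo; SD, n = 3), and passed in no comparison. The gene cxcl8b.3 had 20 reads in all, under the minimum for a test. For cxcl8b.1 no change was detected, and with an SE of 0.70 to 1.26 on the log2 scale only a large change could have passed. A change of cxcl8b.3 could not be tested at this depth.

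Among the other CXC chemokines, 8 of the 12 found had enough reads to be tested in Amp against Control and in Beclo against Control, and 5 in the other 4 comparisons. None passed. For this list and those of the receptors and regulators that follow, 0 is near what the share of all genes called, at most 2.46% in any comparison, gives for lists of this size. The median log2 fold change of the 8 chemokines of this list after amputation was -0.61, against -0.11 for all genes. The lowest of them, cxcl11.5 (-3.11), cxcl11.6 (-1.29) and cxcl11.7 (-1.21), had only 40, 44 and 49 reads over the 12 samples. The median thus rests partly on genes with few reads. The gene of this list whose level went most with that of cxcl8a was cxcl18b, which encodes a fish chemokine that attracts neutrophils. Pearson's r with cxcl8a over the 12 samples was 0.87. Like cxcl8a, it was highest in Amp, at 14.4 ± 5.48 CPM, against 8.91 ± 3.44 in Control. With beclomethasone it was at 4.84 ± 1.29 (Beclo) and 4.71 ± 0.566 CPM (Amp+Beclo; SD, n = 3). Its change in Amp against Control, 0.71 on the log2 scale, did not pass (adjusted p 0.32, edgeR). The genes with most reads were cxcl12a, cxcl12b and cxcl14, chemokines made by many tissues without inflammation. Their log2 fold changes after amputation were -0.56, -0.65 and -0.04, and the adjusted p was at least 0.34.

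Of the CXC receptors, 8 of 10 were tested and none passed in any comparison. Of the receptors that bind CXCL8 in mammals, cxcr2 was not matched to an identifier. The gene cxcr1 (ENSDARG00000052088) had 200 reads in all, with means from 1.18 CPM in Control to 1.65 CPM in Amp+Beclo, and a second gene with this symbol, ENSDARG00000054975, had 2 reads. The receptors with most reads were the cxcr4 gene ENSDARG00000041959, whose product binds Cxcl12, and cxcr3.2, whose product binds Cxcl11 and is known in zebrafish macrophages. The cxcr4 gene had 405, 641 and 162 CPM in Control and 1488, 1026 and 1187 CPM in Beclo, and so stood opposite to cxcl8a in these groups, with no overlap. Its log2 fold change was 1.81, with an adjusted p of 0.24 (edgeR).

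The mRNA of the pathways that act on Cxcl8 in mammals was also measured. Of the 21 genes of the NF-kB pathway, which include the transcription factor subunits, their inhibitors and the kinases and adaptors upstream, all were tested and none passed in any of the 6 comparisons, where 0% to 2.46% of all genes did. Their median log2 fold change in Amp against Control was -0.22. The inhibitor genes nfkbiaa and nfkbiab, themselves targets of NF-kB, changed by 0.31 and 0.65 on the log2 scale in this comparison, with adjusted p of 0.69 and 0.4. Of the AP-1 and C/EBP factors, 13 of 14 were tested and none passed in any comparison, with a median of -0.02. The genes with most reads were cebpb, the junb gene ENSDARG00000104773, fosab and cebpa. The junb gene was highest in Amp, with a wide spread, at 3447 ± 2931 CPM against 1513 ± 1002 in Control. Its level was 1316 ± 156 CPM in Beclo and lowest in Amp+Beclo, at 962 ± 202 CPM (SD, n = 3). The 5 genes of mRNA decay and its control, among them zfp36l1 genes, zfp36l2 and the phosphatase gene dusp1, did not pass either, and zfp36 was not matched.

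Several inflammatory cytokine and enzyme genes rose after amputation, as cxcl8a did. Of 18 genes, 16 were tested in Amp against Control. All 16 had a log2 fold change above 0, with a median of 1.33 against -0.11 for all genes, and 7 passed, where 1.14% of all genes passed as higher. In 12 of the 16 (75%) the level was higher in Amp in all 3 replicates, which held for 19% of all genes tested. The cytokine gene il6 rose by 3.01 on the log2 scale (adjusted p 8.6e-10), tnfa by 3.00 (1.3e-06) and csf3b, which encodes a granulocyte colony-stimulating factor, by 2.89 (4.4e-08). The cytokine genes il11b and il1b rose by 2.26 (0.00088) and 1.40 (0.033). The gene acod1, for the enzyme that makes itaconate, rose by 2.16 (0.00033), and mmp13a, for a collagenase, by 1.31 (0.033). As for cxcl8a, all of these calls were lost in 3 of the alternatives. None of the 16 passed without the block, without replicate 3, or with all 12 samples in 1 fit with the block kept, and 6 and 4 passed without replicates 1 and 2. Some were lost in others as well. The call of mmp13a was lost without the low-count filter (adjusted p 0.051, edgeR) and without replicates 1 or 2. Those of il1b and acod1 were lost without replicate 2. With at least 10 reads in every sample tnfa and il11b were not fitted, because their lowest Control samples had 4 and 8 reads. DESeq2 gave no adjusted p for these 2 genes.

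**Figure D3:**
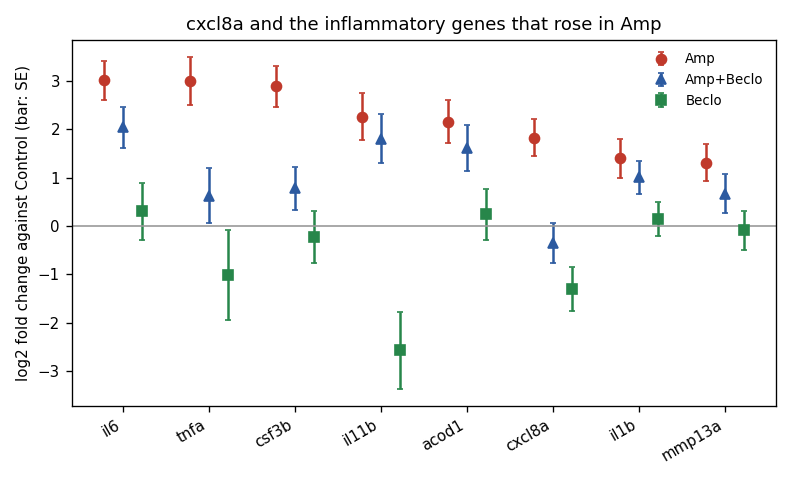
Log2 fold change against Control (y axis, bars are SE) of cxcl8a and the 7 inflammatory genes that rose in Amp, in Amp (circles), Amp+Beclo (triangles) and Beclo (squares). The genes shown were chosen because they passed in Amp, where the 8 values run from 1.31 to 3.01. None of them passed in Amp+Beclo, but that fit had far fewer degrees of freedom (10.3 against 44214 for cxcl8a). There il6 is at 2.04, il11b at 1.81 and acod1 at 1.61, and cxcl8a, at -0.35, is the only one below 0.

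Under beclomethasone these genes had different values. None of the 16 passed in Beclo against Control (median log2 fold change -0.10), in Amp+Beclo against Control (median 0.60) or in Amp+Beclo against Amp (median -0.60, against 0.14 for all genes). Of all genes 0.172%, 0.419% and 0.299% passed in these comparisons, so 0 of 16 is near what these shares give. In Amp+Beclo against Control 12 of the 16 were above 0, with il6 at 2.04 (adjusted p 0.091, edgeR). The gene csf3b had 55.3, 498 and 355 CPM in Amp and 48.6, 64.8 and 35.6 CPM in Amp+Beclo, so replicates 2 and 3 were far apart and replicate 1 was nearly equal. The gene il6 had 8.03, 68.1 and 41.7 CPM in Amp and 8.12, 23.3 and 17.1 CPM in Amp+Beclo, with the same pattern. The gene il1b had 120, 461 and 714 CPM in Amp and 167, 371 and 286 CPM in Amp+Beclo. For il1b, as for csf3b and il6, the groups overlapped. The fitted log2 differences of these groups were -2.19 for csf3b (adjusted p 0.13, edgeR), -2.19 for tnfa (0.21) and -0.93 for il6 (0.59). They were -0.60 for mmp13a (0.71), -0.53 for acod1 (0.78), -0.39 for il11b (0.84) and -0.36 for il1b (0.85). With -2.12, cxcl8a was near csf3b and tnfa. Whether cxcl8a differed from the other genes in this respect was not tested.

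Most of the known targets of the glucocorticoid receptor had higher levels with beclomethasone, and a few passed. In Beclo against Control 13 of 15 had a log2 fold change above 0, with a median of 0.94 against -0.04 for all genes. Of the 15, 8 (53.3%) were higher in Beclo in all 3 replicates, which held for 12.3% of all genes tested. Of 15 genes tested, 3 passed as higher in Beclo than in Control, where 0.167% of all genes did, and 2 in Amp+Beclo against Control, where 0.374% did. The gene fkbp5, for a co-chaperone of the receptor, had 213, 149 and 106 CPM in Control and 188, 104 and 139 CPM in Amp. With the drug it had 2014, 1584 and 1857 CPM (Beclo) and 1687, 1262 and 1126 CPM (Amp+Beclo). All 6 beclomethasone-treated samples were thus above all vehicle-treated samples, and the levels of cxcl8a were not separated in this way. Its log2 fold change was 3.59 in Beclo (adjusted p 0.0037) and 3.16 in Amp+Beclo against Control (0.0075). The transcription factor gene klf9 rose by 3.08 in Beclo (0.0071) and by 2.75 in Amp+Beclo (0.01), and the pyruvate dehydrogenase kinase gene pdk2 (ENSDARG00000059054) by 2.38 in Beclo (0.027). In wounded larvae 3 of the 15 passed as higher with the drug, where 0.258% of all genes did, namely fkbp5, klf9 and the clock gene per1 (ENSDARG00000056885), by 3.29 (0.00089), 3.64 (1.9e-05) and 3.1 (0.0024). A second per1 gene with more reads, ENSDARG00000012499, did not pass there, at 0.89 (adjusted p 0.61, edgeR). In Beclo against Control a second pdk2 gene, ENSDARG00000020876, was at 0.45 (0.96) and did not pass. The receptor gene nr3c1 itself did not pass in any comparison. The 3 calls in Beclo became 0 without replicate 1, but 6 without replicate 2. They became 5 with DESeq2, without the low-count filter and with at least 10 reads in every sample. The 3 calls in wounded larvae became 0 without the block and without replicates 1 or 2, and stayed 3 with DESeq2.

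To find the genes whose pattern was most like that of cxcl8a, its log2 levels in the 12 samples were correlated with those of 21978 genes with at least 60 reads. This is a description, since the samples share groups and replicate experiments. The gene most alike was marcksl1b (Pearson's r 0.95), for an actin-binding protein of the MARCKS family, and it was the only gene with r above 0.9. It had 428, 1071 and 634 CPM in Control and 784, 1614 and 1353 CPM in Amp. With the drug it had 496, 498 and 442 CPM (Beclo) and 599, 669 and 557 CPM (Amp+Beclo). As for cxcl8a, replicate 2 was the highest of Control and the Beclo samples were close together. Its change in Amp, 0.86 on the log2 scale, was smaller and did not pass (adjusted p 0.27, edgeR). The next were si:ch211-195b15.8 (r 0.90), csf3b (0.89), lix1 (0.89) and hras (0.89), of which csf3b also belongs to the inflammatory list. When the levels were centred on the mean of each replicate experiment, r was 0.96 for marcksl1b and 0.89 to 0.93 for the other 4, but only 1 of the 5 stayed among the 5 most alike. The order among close values is thus not fixed.

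**Figure D4:**
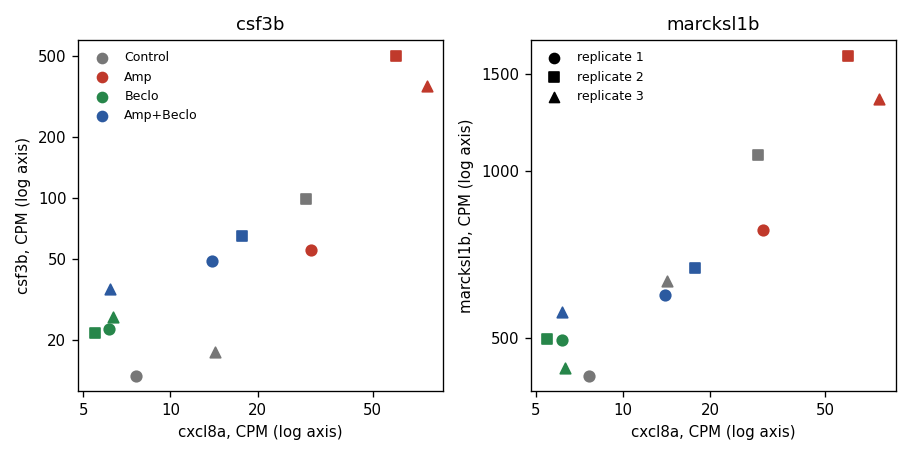
Level of csf3b (left) and marcksl1b (right) against that of cxcl8a in the 12 samples, as TMM-normalized CPM on log axes, with colours for the groups and symbols for the replicates. Levels of both rise along with cxcl8a (r 0.89 and 0.95), with the Beclo samples at the lower left and replicates 2 and 3 of Amp at the upper right.

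The genes least alike were ENSDARG00000086870 (r -0.92), slc12a2 (-0.91), for a sodium, potassium and chloride cotransporter, and ENSDARG00000059899 (-0.91), and 4 genes had r below -0.9. The gene slc12a2 had 153, 96.3 and 104 CPM in Control and 82.7, 43.8 and 38.3 CPM in Amp. With the drug it had 274, 279 and 179 CPM (Beclo) and 169, 176 and 144 CPM (Amp+Beclo). It was thus lowest in the group where cxcl8a was highest and highest where cxcl8a was lowest, but it passed in none of the comparisons. The gene ENSDARG00000059899 passed as lower in Amp than in Control, by -2.53 on the log2 scale (adjusted p 0.037), and as higher in Amp+Beclo than in Amp, by 3.93 (0.0054). It had 544 reads over the 12 samples, so these values rest on few reads.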

How the data were processed

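Macrophages of 12 samples (4 groups of 3) were analysed by RNA-seq. The authors amplified the RNA with the SMART-seq V4 kit, sequenced reads of 50 nucleotides, mapped them to GRCz10 with TopHat2 2.1.0 and deposited unnormalized read counts per Ensembl gene, with no filter. The counting program is not given in the sources used here, and neither is the use of strand. Reads ambiguous between genes made up 1.64% to 2.46%, and reads outside genes 4.72% to 12.6%. Both were left out of library sizes. Reads shared by near-identical genes are not recorded, so paralogs are uncertain.

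Symbols came from a gene name table, which named 26121 of 31962 genes, and lists were matched through it and RefSeq synonyms. Where several genes share a symbol the identifier is given.

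Counts were fitted with edgeR 4.0.16 (R 4.3.3; TMM, estimateDisp, glmQLFit, glmQLFTest), with genes of at least 30 reads over the 6 samples compared, or 60 over 12 for the interaction. The SE is the absolute log2 fold change over the square root of F. A call is an adjusted p below 0.05 (Benjamini-Hochberg) with, against Control only, a fold change above 2. Within groups, all pairs of libraries differed by more than sampling noise. The methods state 3 replicate experiments and a paired analysis, so the replicate number was a block. Over 21979 genes, deviations from group means of same-numbered samples correlated at 0.14 on average (range -0.38 to 0.66). The mean was 0.55 for Amp and Control, but 0.02 for Beclo and Control and 0.06 for Amp+Beclo and Amp. For Amp+Beclo it was 0.11 with Control and 0.13 with Beclo. The value for other numbers, -0.07, follows from centring each group on its mean, so it is no separate comparison. Log2 CPM used a prior count of 2. The fit was tested on simulated data. Alternatives were no block, DESeq2 1.42.0, RLE normalization, no low-count filter, at least 10 reads in every sample, 1 fit of all 12 samples, no fold-change cutoff and leaving out each replicate. For the permutation tests they were RLE or no scaling, a prior count of 0.5, no block and leaving out each replicate. The counts of list members under each alternative were chosen after seeing the data. The gene, the lists and the tests were chosen with earlier results of these data known. Genes were named by rule, namely list members that passed in any comparison and up to 4 with most reads per list, and the 5 genes most and 3 least like cxcl8a. Members singled out besides these were chosen after their values were seen.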

Additional observations from a re-analysis of the deposited data

How the results depend on the processing

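The rise of cxcl8a in Amp kept its direction under all 10 alternatives and its call under 7. Among the 7 is the alternative with no fold-change cutoff, which reuses the main fit and so could not lose the call. The log2 fold change was 1.72 with no replicate block and 1.82 with all 12 samples in 1 fit, both without a call, and 1.53 to 2.29 when replicates were left out. Amp+Beclo against Control ranged from -0.94 to 0.06 without 1 replicate, so its sign changed. Amp+Beclo against Amp passed with DESeq2, at -2.22. The combined effect of beclomethasone was -2.22 to -1.39 without 1 replicate, where 4 pairs allow no exact p below 0.125. The combined effect of amputation was 1.27 with total-read scaling (exact p 0.0312) and 1.37 without the pairing (exact p 0.01). The interaction ranged from -1.59 to -0.03 without 1 replicate, and Amp+Beclo against Beclo from 0.65 to 1.49. The other values of cxcl8a kept their sign and their side of the threshold.

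Counts of genes called depended strongly on the processing. For Amp against Control (543) they were 0 with no replicate block, 826 with DESeq2, 7 with all 12 samples in 1 fit and 2 to 1508 without 1 replicate. For Beclo against Control (38) they were 241 with DESeq2, 60 with RLE, 138 without the filter, 116 with 10 reads in every sample and 3 to 140 without 1 replicate. For Amp+Beclo against Control (93) they were 29 without the block, 369 with DESeq2, 141 with RLE, 261 without the filter and 35 to 664 without 1 replicate. For Amp+Beclo against Amp (65) they were 2 without the block, 21 with 10 reads in every sample, 25 with all 12 samples and 1 to 13 without 1 replicate. For Amp+Beclo against Beclo (1) they were 0 without the block, 132 with DESeq2, 0 with RLE, 18 without the filter, 14 with 10 reads in every sample and 0 to 38 without 1 replicate. DESeq2 gave 5 genes for the interaction (0). The cause was not tested. Of the calls in Amp against Control, 46.2% were higher in Amp, and 66.9% with DESeq2 and 54.8% with RLE. Of 21 calls of other named genes none changed sign. RLE kept all 21, and 16 were lost without the block, 14 with all 12 samples and 8, 12 and 17 without replicates 1, 2 and 3. DESeq2 kept 16 and lost 2, and gave no adjusted p for the rest. Depth limits the Cxcl8 paralogs, with at most 125 reads.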
